A study of Mus musculus with 12 samples.

Results

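The genes described here are the 59 protein-coding members of the bone morphogenetic protein (BMP) and transforming growth factor beta (TGF-beta) pathway that were picked by symbol from the 55385 genes of the deposited tables: the BMP, GDF, TGF-beta and activin/inhibin ligands, their receptors, the SMAD proteins, the ID genes and the secreted antagonists. Gdf10 was left out by the rule, and the symbol pattern also took in Bmp1, a secreted protease, and Bmp2k, a BMP-inducible kinase. Their RNA was measured by polyadenylated RNA-seq of whole mouse cerebellum at postnatal day 14 in 3 wild-type (WT) libraries and 3 libraries from EED-/- conditional knockouts, all on the C57BL/6 strain. The protein made from Eed belongs to the core of Polycomb repressive complex 2 (PRC2), which writes the repressive histone mark H3K27me3. Which Cre line was used and which exons it removes is not given in the labels. They also do not say whether each library is 1 animal or a pool, and p-values therefore cover the spread between libraries, which may be technical. ChIP-seq samples of the same series were not analysed here.

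In this pathway, ligand dimers bring together type I and type II serine/threonine kinase receptors, which phosphorylate receptor-activated SMADs. Smad1, Smad5 and Smad9 carry BMP signals and Smad2 and Smad3 carry TGF-beta and activin signals, and both sets enter the nucleus with the shared partner Smad4. Secreted antagonists such as noggin, chordin and follistatin bind the ligands outside the cell. In the developing hindbrain, BMPs of the roof plate help to specify granule cell progenitors, and BMP signals oppose the proliferation that sonic hedgehog drives in them.

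Levels are in CPM, the count scaled to library size with TMM factors, and a value after ± is the SD (n = 3 per genotype). A gene was called when the Benjamini-Hochberg adjusted p of edgeR's quasi-likelihood F test, adjusted over all 18091 tested genes, was under 0.05. Values of the replicates are given in the order 1, 2, 3. Eed itself measured 20.1, 26.6 and 23.5 CPM in the WT libraries against 11.6, 9.31 and 11.3 CPM in the EED-/- libraries (log2 -1.12, SE 0.154, adjusted p = 0.0015). The libraries held 19621814 to 20366173 estimated counts, so 1 CPM rests on about 20 counts.

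Whole cerebellum mixes cell types, and several marker lists differed between the genotypes. All 13 granule neuron markers were lower, with a summed level of 5588 to 7101 CPM in WT and 640 to 887 CPM in EED-/- libraries. Meningeal fibroblast markers were higher in all 13 tested cases (375 to 462 against 887 to 1215 CPM), microglial markers in 11 of 13 (220 to 231 against 396 to 452 CPM) and skeletal muscle markers in all 10 (7.59 to 10.3 against 106 to 149 CPM). Oligodendrocyte progenitor markers were higher in 5 of 7 cases and endothelial and mural markers in 4 of 15, and neither list's summed level overlapped between the genotypes. Among the markers of Bergmann glia and astrocytes 1 of 11 was higher and 2 were lower, and 4 of 8 markers of mature oligodendrocytes were lower. Of 12 Purkinje cell, 10 choroid plexus and 6 blood markers edgeR called 0, with 3, 2 and 5 at an unadjusted p under 0.05. DESeq2 called 2, 1 and 1 of these and limma-voom 1, 0 and 0. In such bulk samples fewer cells of a type and less RNA per cell cannot be told apart, and the part of these shifts in the values below was not tested.

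**Figure D1:**
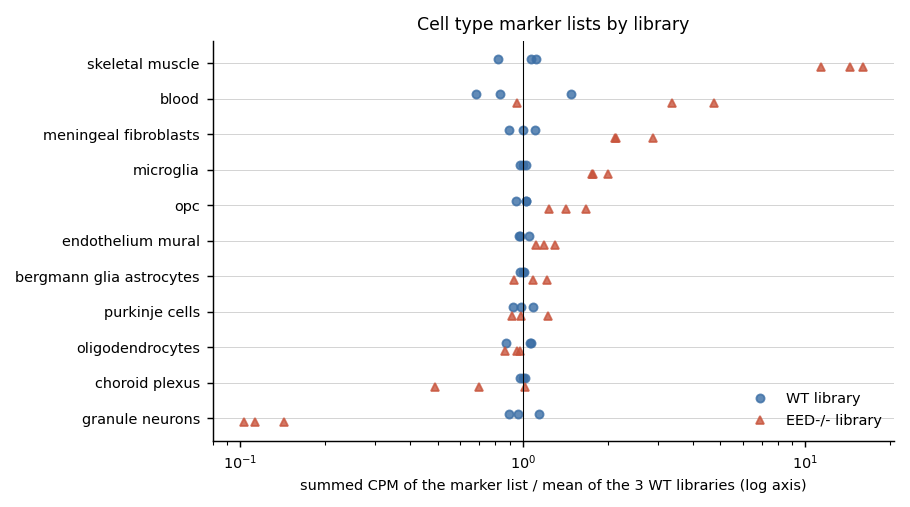
Summed CPM of each cell type marker list in each library, divided by the mean of the 3 WT libraries (horizontal log axis); circles are WT and triangles EED-/- libraries. Granule neuron markers lie far below 1 in all 3 EED-/- libraries and skeletal muscle markers far above it, while the Purkinje and blood lists overlap between genotypes.

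Of the 59 members, 50 had enough counts to be tested: 11 rose, 9 fell and 30 were not called. Over all tested genes 11.7% were called higher, 14.1% lower and 25.8% in either direction, against 22%, 18% and 40% of the tested members. At least 2-fold rises were 4 of the 50 tested members, with 5.77% of all tested genes, and at least 2-fold falls were 3, with 4.6%. The 4 rises include Fst and Bmp3, which passed the filter on low counts with only 2 of 3 WT libraries above it. The 3 falls include Gdf3, which passed through its WT libraries alone, so these counts depend in part on the filter. The members' log2 fold changes ran from -1.79 to 2.79 with a median of 0.15, and the median over all tested genes was -0.03. In 30 members the libraries of the genotypes did not overlap, which is 60% of those tested against 43.9% of all tested genes. Of the 20 calls, 12 held in each of 14 alternative settings (7 rises and 5 falls). Upper-quartile scaling, under which higher genes made up 61.3% of all calls in place of 45.5%, gave 15 members higher and 6 lower. Without WT replicate 3 the members called higher numbered 7, and without EED-/- replicate 1 those called lower numbered 5. The replicate block gave 8 higher and 6 lower. Among the rises that held throughout were Bmp3, Bmp4, Bmp7, Tgfb2, Fst and Tgfbr2, and the falls were Bmp1, Chrd, Tgfbr3, Smad3 and Smad4.

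**Figure D2:**
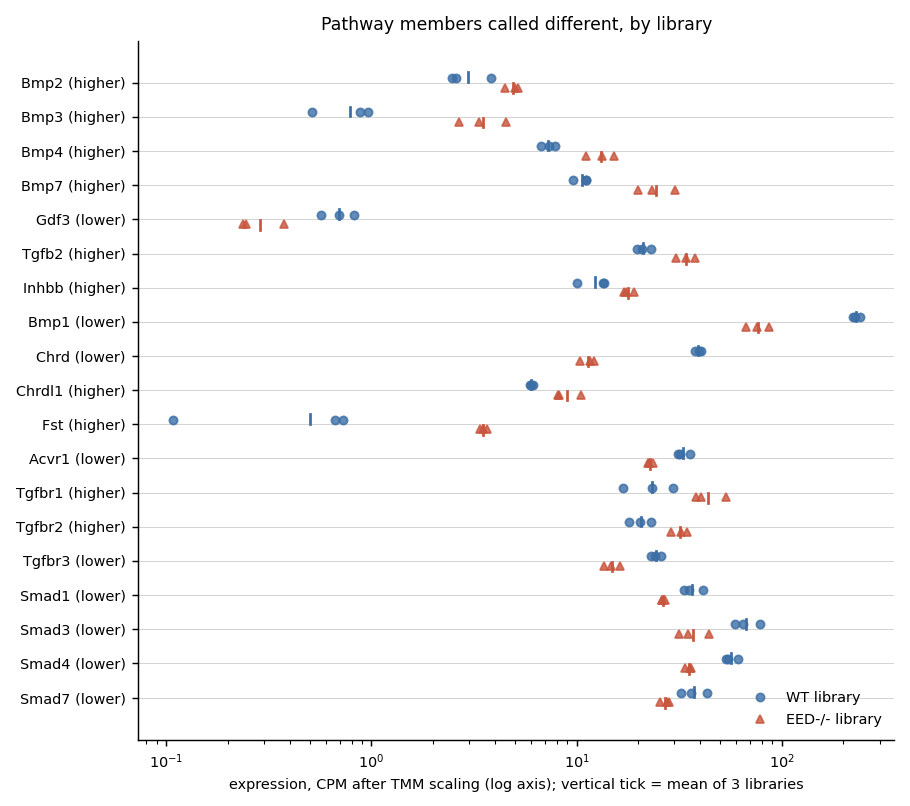
CPM of 19 called members in each library (horizontal log axis), with circles for WT, triangles for EED-/- and vertical ticks for the mean of 3 libraries. The genotypes do not overlap for any of these genes, and the widest gaps are those of Fst, Bmp3, Chrd and Bmp1. The genes were called on these same libraries, which favours a lack of overlap, and 43.9% of all tested genes do not overlap either.

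The largest falls among members that were well expressed in both genotypes were those of a protease and of the antagonist that it cleaves. Bmp1, which encodes a metalloprotease that cleaves procollagens and chordin, measured 222, 241 and 228 CPM in WT and 75.8, 87.1 and 67.0 CPM in EED-/- replicates. Every EED-/- library was far below every WT library. From a mean of 230 ± 9.61 CPM it fell to 76.6 ± 10.1 CPM (log2 -1.59, SE 0.126, adjusted p = 0.000122), which is 3.0-fold. Chrd, which encodes the BMP antagonist chordin, measured 39.7, 37.8 and 40.3 CPM in WT and 11.6, 12.1 and 10.4 CPM in EED-/- replicates. Its libraries lay close together within each genotype, and the change of -1.79 (SE 0.115, adjusted p = 5.12e-05), or 3.45-fold, had the smallest adjusted p of the members. In GRCm38, Bmp1 (ENSMUSG00000022098.10) spans bases 70474558 to 70520234 of chromosome 14 (minus strand) and Chrd (ENSMUSG00000006958.14) bases 20733127 to 20742384 of chromosome 16 (plus strand). The granule neuron markers, whose median log2 fold change was -2.86, were lower in the same libraries, and their part in these falls was not tested.

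Other secreted antagonists rose or were not called. Fst, which encodes the activin-binding follistatin, measured 0.667, 0.107 and 0.724 CPM in WT and 3.65, 3.48 and 3.38 CPM in EED-/- replicates. It passed the filter on low counts with only 2 of 3 WT libraries above it, and WT replicate 2 held almost no reads of it. The change was 2.79 on the log2 scale (SE 0.454, adjusted p = 0.00327), or 6.90-fold. Chrdl1, which encodes a chordin-like antagonist, measured 5.9, 6.01 and 6.1 CPM in WT and 8.14, 8.23 and 10.5 CPM in EED-/- replicates (1.49-fold, adjusted p = 0.031). That call ended without WT replicate 2 or 3 or any 1 of the EED-/- replicates and under the replicate block, where the adjusted p lay between 0.0555 and 0.0911; over its 14 alternatives it lay between 0.0159 and 0.0911. Noggin (Nog), Grem1 and Nbl1 were not called. Nog was 6.18 ± 1.68 CPM in WT and 6.69 ± 1.0 CPM in EED-/- (95% interval of the log2 change -0.39 to 0.62), Nbl1 21.9 ± 4.13 and 23.8 ± 4.01 CPM, and Grem1 2.85 ± 1.43 and 3.17 ± 0.349 CPM. The pseudoreceptor Bambi, which lacks a kinase and dampens signalling, was 3.85 ± 0.0896 and 4.35 ± 0.447 CPM and was not called.

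Among the 10 BMP ligand genes 6 were tested, 4 rose and none of the 6 fell, beside 11.7% higher and 14.1% lower over all tested genes. Bmp3, an atypical member that opposes other BMPs, measured 0.513, 0.966 and 0.879 CPM in WT and 3.36, 2.68 and 4.5 CPM in EED-/- replicates. This was a 4.45-fold rise from a level near the filter on low counts, which only 2 of 3 WT libraries passed (log2 2.15, SE 0.319, adjusted p = 0.00216). Bmp7, a ligand made by roof plate, meninges and kidney among other tissues, measured 11.1, 11.1 and 9.61 CPM in WT and 23.4, 30.3 and 19.8 CPM in EED-/- replicates. It rose 2.31-fold (log2 1.21, SE 0.175, adjusted p = 0.00194). Bmp4 measured 7.85, 7.30 and 6.72 CPM in WT and 13.3, 15.1 and 11.1 CPM in EED-/- replicates, a 1.81-fold rise (adjusted p = 0.00635). For Bmp4 and Bmp7 the order of the EED-/- libraries was the same, with replicate 2 highest and replicate 3 lowest. This order was not particular to them: of the 50 tested members, 20 were highest in EED-/- replicate 2 and 21 lowest in EED-/- replicate 3. Meningeal fibroblast markers summed to 895, 1215 and 887 CPM in the EED-/- libraries, also highest in replicate 2, and to 462, 375 and 421 CPM in WT replicates 1, 2 and 3. In WT the list was lowest in replicate 2, and both ligands were lowest in replicate 3. The part of these markers in the ligands' rises was not tested.

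Bmp2, which together with Bmp4 forms the group closest to the fly ligand Dpp, measured 2.46, 3.81 and 2.58 CPM in WT and 5.16, 5.03 and 4.45 CPM in EED-/- replicates. The rise was 1.65-fold (adjusted p = 0.0406). The call ended under DESeq2, under the replicate block, and without WT replicate 1 or 3 or any EED-/- replicate, at adjusted p values of 0.0515 to 0.143 (0.0155 to 0.143 over its 14 alternatives). Bmp5 was 12.4 ± 2.45 CPM in WT and 12.9 ± 2.78 CPM in EED-/-, with a 95% interval of the log2 change from -0.41 to 0.53. Bmp6 was 17.1 ± 3.33 and 19.7 ± 5.78 CPM, with an interval from -0.31 to 0.72, and neither gene was called. In EED-/- replicate 2 Bmp6 reached 26.2 CPM, and without that library the log2 change was -0.06.

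GDF ligands were mostly at low levels. Gdf11, a regulator of axial patterning and neurogenesis, was the most abundant at 58.1, 42.1 and 46.0 CPM in WT and 61.3, 65.8 and 70.8 CPM in EED-/- replicates. Its groups did not overlap, but the adjusted p of 0.0513 lay just above the threshold, and 8 of 14 alternatives called it higher (adjusted p 0.00704 to 0.174). In the authors' deposited table its log2 fold change was 0.46 with an adjusted p of 0.0345. Gdf3, a ligand of pluripotent cells, measured 0.821, 0.697 and 0.568 CPM in WT and 0.237, 0.376 and 0.245 CPM in EED-/- replicates and passed the filter through its WT libraries alone. Its fall of 2.4-fold (adjusted p = 0.038) was lost in 11 of the 13 alternatives that gave it a value, every one that leaves out a library among them, at adjusted p values of 0.0523 to 0.248 (0.0351 to 0.248 over all 13). Gdf9 was 1.01 ± 0.125 and 0.682 ± 0.182 CPM and Gdf5 0.433 ± 0.346 and 0.553 ± 0.31 CPM, and neither was called.

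The 9 members too low to test were Bmp8a, Bmp8b, Bmp10, Bmp15, Gdf1, Gdf2, Gdf6, Gdf7 and Gdf15. Gdf1 had 0 counts in all 6 libraries and Bmp10 had 1. Gdf15, a stress-induced cytokine, had 0, 2 and 1 counts in WT and 7 in each of the 3 EED-/- replicates, a ratio of 6.4 with a 95% exact counting interval of 1.91 to 33.5. Gdf2, which encodes the circulating ligand BMP9, had 0 counts in every WT library and 2, 5 and 0 counts in the EED-/- replicates. Most of these reads came from EED-/- replicate 2, and replicate 3 had none, as in WT. The roof plate ligand Gdf7 had 15 counts over the WT and 16 over the EED-/- libraries (ratio 0.976, interval 0.452 to 2.12). Gdf6 had 16 and 33 counts (ratio 1.89, interval 1.01 to 3.67) and Bmp8a 14 and 18 (ratio 1.18, interval 0.553 to 2.56). Bmp8b had 19 and 31 counts (ratio 1.49, interval 0.817 to 2.8) and Bmp15 6 and 12 (ratio 1.83, interval 0.636 to 5.94). Bmp8a and Bmp8b are close paralogues whose reads the authors' counting could split. These intervals cover counting error only. Replicates differed by more than sampling noise, so the intervals may be too narrow.

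TGF-beta itself was represented by 3 ligand genes, of which Tgfb2 rose. Tgfb2, the isoform best known from neurons, glia and meninges, measured 19.6, 23 and 20.9 CPM in WT and 30.5, 34.1 and 37.9 CPM in EED-/- replicates. The groups were well separated (1.62-fold, log2 0.69, SE 0.126, adjusted p = 0.00524). Tgfb1, the isoform of microglia and blood cells, was 8.25 ± 0.937 CPM in WT and 11.3 ± 2.11 CPM in EED-/- and was not called (adjusted p = 0.0955), although the groups did not overlap. Tgfb3 was 9.69 ± 1.3 and 7.68 ± 1.76 CPM and was not called.

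The inhibin genes encode subunits that pair into activins (beta with beta) or inhibins (alpha with beta). Inhbb measured 13.6, 10.03 and 13.4 CPM in WT and 17.4, 19.1 and 16.9 CPM in EED-/- replicates, a 1.44-fold rise (adjusted p = 0.0353). It was not called without WT replicate 2 or 3, without EED-/- replicate 1 or 2, or under the replicate block, at adjusted p values of 0.0745 to 0.112 (0.0188 to 0.112 over its 14 alternatives). Inhba was 6.04 ± 1.55 and 8.82 ± 1.1 CPM (adjusted p = 0.0988). The alpha subunit Inha was 20.8 ± 0.179 and 15.8 ± 3.44 CPM (adjusted p = 0.116). For both genes the groups did not overlap, and neither was called.

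**Figure D3:**
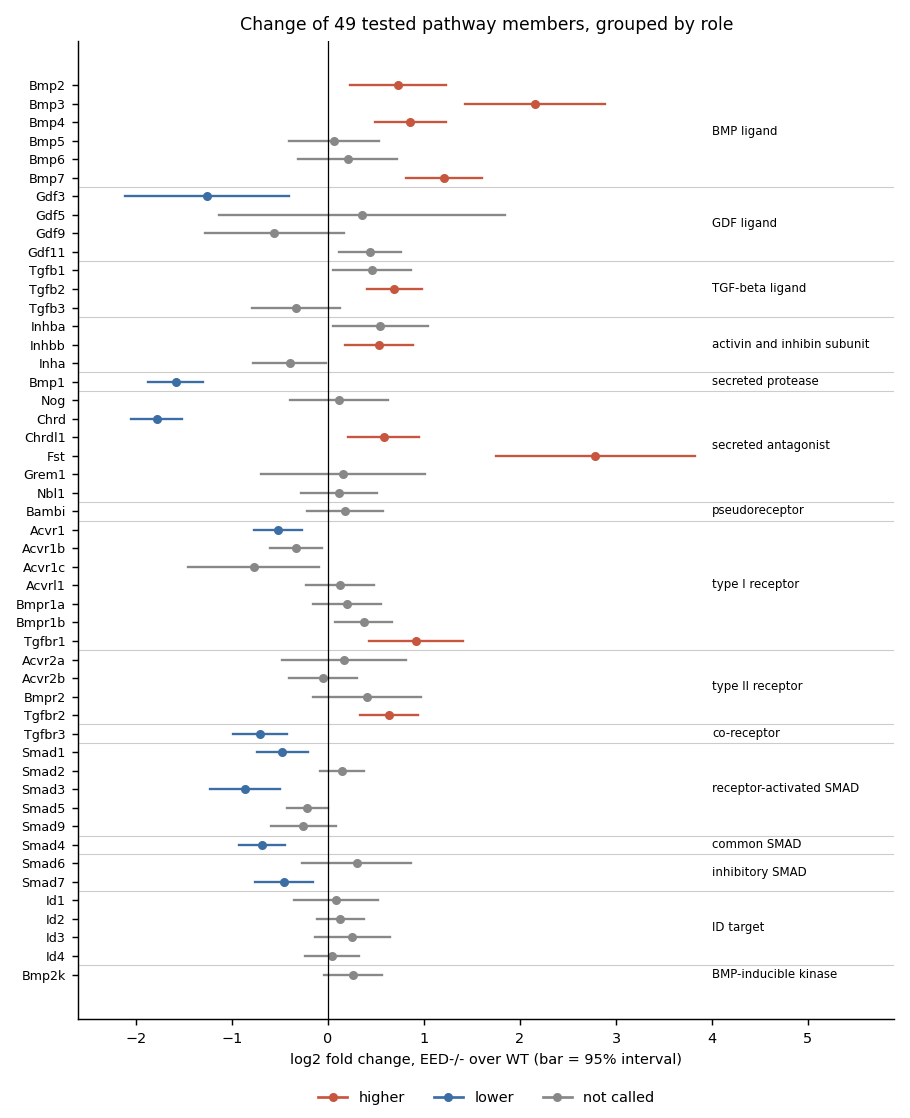
Log2 fold change of EED-/- over WT for 49 tested members with its 95% interval (horizontal axis), grouped by role, with called rises in red, called falls in blue and other members in grey. The 4 called BMP ligands lie right of 0, the 4 called SMAD genes left of it, and the 4 ID genes have intervals that include 0.

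Of 12 receptor and co-receptor genes 2 rose and 2 fell, where 11.7% of all tested genes were called higher and 14.1% lower. The genes of both signalling receptors of TGF-beta rose. Tgfbr1, the type I receptor, measured 16.8, 29.5 and 23.4 CPM in WT and 40.4, 38.1 and 53.3 CPM in EED-/- replicates, a 1.89-fold rise (log2 0.92, SE 0.215, adjusted p = 0.0157). WT replicate 1 was low and EED-/- replicate 3 high for this gene. The call ended without WT replicate 3, where the log2 change was also 0.92 and the adjusted p was 0.0578 (0.000158 to 0.0578 over its 14 alternatives). Tgfbr2, the type II receptor, measured 23.1, 18.0 and 20.5 CPM in WT and 28.9, 34.4 and 32.2 CPM in EED-/- replicates. Its rise was 1.55-fold (log2 0.63, SE 0.133, adjusted p = 0.0098). Microglia are known for high levels of both receptors, and the summed microglial markers were 231, 225 and 220 CPM in WT and 396, 401 and 452 CPM in EED-/- replicates. That list's ratio of means was 1.85, and its part in the receptors' rises was not tested.

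The co-receptor Tgfbr3 (betaglycan), which presents TGF-beta2 and also binds inhibin, went the other way. It measured 25.8, 23 and 24.0 CPM in WT and 13.5, 14.8 and 16.2 CPM in EED-/- replicates, a 1.64-fold fall (log2 -0.71, SE 0.123, adjusted p = 0.00428). Acvr1, a type I receptor for BMPs and activin-like ligands, measured 35.6, 31.3 and 31.9 CPM in WT and 22.4, 23.7 and 22.6 CPM in EED-/- replicates. The fall was 1.44-fold (adjusted p = 0.00942), and without EED-/- replicate 1 the adjusted p was 0.0562 (0.00553 to 0.0562 over its 14 alternatives).

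None of the 3 receptor genes named for BMPs was called. Bmpr1a was 67.2 ± 13.2 CPM in WT and 77.0 ± 6.24 CPM in EED-/- (95% interval of the log2 change -0.16 to 0.56). Bmpr1b was 18.6 ± 1.94 and 24.1 ± 2.24 CPM without overlap (adjusted p = 0.0714), and 3 of 14 alternatives called it higher. Bmpr2, the shared type II receptor, was 119 ± 35.1 and 158 ± 39.8 CPM, and was not called. Its libraries measured 84.1, 154 and 119 CPM in WT and 137, 133 and 204 CPM in EED-/- replicates, and WT replicate 2 stood above EED-/- replicates 1 and 2. Of the activin receptors, the type I genes Acvr1b and Acvr1c were 102 ± 12.5 and 81.1 ± 3.69 CPM and 10.3 ± 3.84 and 6.02 ± 1.63 CPM (adjusted p = 0.075 and 0.0928). The type II genes Acvr2a and Acvr2b had log2 fold changes of 0.17 and -0.05. The endothelial type I receptor Acvrl1 was 13.8 ± 0.811 and 15.0 ± 2.63 CPM and was not called.

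Long transcripts were measured unevenly between libraries. Across the 50 tested members the log2 ratio of EED-/- replicate 3 over replicate 1 had a Spearman correlation of 0.66 with transcript length, and over replicate 2 also 0.66. For WT replicate 3 over WT replicate 1 it was 0.56, and for WT replicate 3 over replicate 2 it was 0.07. These correlations are across genes of the same libraries and describe them only. The part of transcript length in the calls was not tested.

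Inside the cell, 4 of 8 SMAD genes fell and none of the 8 rose, beside 14.1% lower and 11.7% higher over all tested genes. Smad3, which carries TGF-beta and activin signals, measured 78.2, 58.9 and 64.5 CPM in WT and 35.0, 44.1 and 31.7 CPM in EED-/- replicates. The fall was 1.82-fold (log2 -0.86, SE 0.16, adjusted p = 0.00562). Smad4, the partner shared by both branches, measured 61.5, 53.7 and 54.4 CPM in WT and 36.1, 35.6 and 33.7 CPM in EED-/- replicates, a 1.61-fold fall (log2 -0.69, SE 0.107, adjusted p = 0.00264). Its EED-/- libraries lay close together, and the lowest WT library stood well above them. Smad2, the close relative of Smad3, was 45.2 ± 1.52 CPM in WT and 49.96 ± 2.52 CPM in EED-/-, with a 95% interval of the log2 change from -0.09 to 0.37, and was not called. The interval of Smad3 ran from -1.23 to -0.50, and the difference between the genes was not tested.

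Smad1, a BMP-activated SMAD, measured 41.2, 35.1 and 33.5 CPM in WT and 26.1, 26.9 and 26.1 CPM in EED-/- replicates. Its 1.39-fold fall (adjusted p = 0.0186) was lost with upper-quartile scaling, under the replicate block and without WT replicate 1 or any EED-/- replicate, at adjusted p values of 0.0515 to 0.0837 (0.0191 to 0.0837 over its 14 alternatives). The inhibitory Smad7, a feedback gene of both branches, measured 43.2, 32.4 and 36.1 CPM in WT and 27.6, 28.1 and 25.5 CPM in EED-/- replicates. That 1.38-fold fall (adjusted p = 0.034) was lost in 10 of 14 alternatives, at adjusted p values of 0.0506 to 0.135 (0.0173 to 0.135 over all 14). These were RLE, upper-quartile and library-size scaling, a filter at 1 CPM, the replicate block, and the fits without WT replicate 1 or 3 or any EED-/- replicate. Smad5 was 76.4 ± 1.47 and 65.9 ± 0.147 CPM without overlap but was not called (adjusted p = 0.136). Smad9 was 32.5 ± 3.09 and 27.2 ± 4.61 CPM and the other inhibitory gene, Smad6, 2.56 ± 0.492 and 3.14 ± 0.669 CPM, and neither was called.

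The ID genes encode helix-loop-helix proteins that block proneural bHLH factors and are the best known transcriptional targets of BMP SMADs. edgeR called 0 of the 4, with 0 at an unadjusted p under 0.05, and DESeq2 and limma-voom each called 0. Id1 measured 14.3, 13.7 and 11.5 CPM in WT and 13.9, 17.2 and 10.6 CPM in EED-/- replicates, and Id3 measured 28.8, 24.5 and 22.5 and 30.3, 36.3 and 23.8 CPM. The genotypes overlapped for both genes, and both were highest in EED-/- replicate 2. The 95% intervals of the log2 change were -0.36 to 0.52 for Id1, -0.14 to 0.64 for Id3, -0.12 to 0.37 for Id2 and -0.24 to 0.32 for Id4. Id2 was 106 ± 5.04 CPM in WT and 116 ± 9.35 CPM in EED-/-, and Id4 95.4 ± 11.3 and 97.9 ± 7.34 CPM. The kinase Bmp2k, which acts in clathrin-mediated endocytosis rather than in SMAD signalling, was 24.9 ± 2.13 and 29.8 ± 3.67 CPM and was not called.

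Scaled to exon length, the WT level reached 1 CPM per kb in 39 of the 50 tested members. Id2 stood highest at 43.6 ± 2.07 CPM per kb. Bmp1 (26.0 ± 1.08), Id4 (24.8 ± 2.94) and Acvr1b (23.1 ± 2.84 CPM per kb) followed and did not differ beyond their spread. The next levels were those of Smad4 at 15.2 ± 1.16, Id3 at 14.1 ± 1.80 and Inha at 14.1 ± 0.121 CPM per kb, again within their spread of each other. In EED-/- libraries Bmp1 stood at rank 13 with 8.64 ± 1.14 CPM per kb, after rank 2 in WT, and Chrd at rank 38 with 1.82 ± 0.14, after rank 17 with 6.28 ± 0.207 CPM per kb. The order depends on the length used: per kb of the longest transcript the WT level of Bmp1 was 42.9 CPM, and its EED-/- rank was 6. Bmp7 had 2.64 ± 0.213 CPM per kb in WT and 6.1 ± 1.32 in EED-/-. Bmp3 and Fst were the lowest members in WT at 0.106 ± 0.0324 and 0.109 ± 0.0742 CPM per kb.

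**Figure D4:**
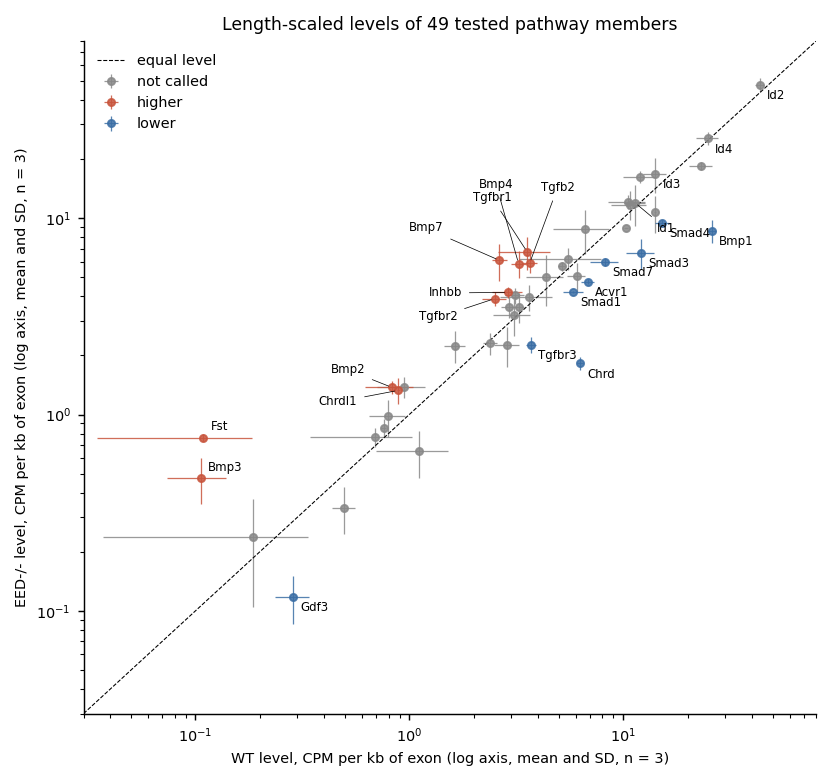
Level of each of 49 tested members in WT (horizontal) and EED-/- (vertical) in CPM per kb of exon, both log axes, with SD over 3 libraries; the dashed line marks equal levels. Fst and Bmp3 lie farthest above the line at the low end, Chrd and Bmp1 farthest below it among the abundant genes, and the 4 ID genes lie near it.

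Promoter sequences were available in the RefSeq table (GRCm38.p6) for 39 of the 59 members, or 66.1%, and for 9 of the 20 called ones. Because fewer than 80% have an entry, a comparison of promoter composition over the members is void. A set of 4 called members that moved in opposite directions is shown to let their start sites be compared, each from 250 bases before to 50 bases after the start, 5′ to 3′ on the gene's strand, with every CpG in capitals. CpG-rich promoters are the sites where Polycomb complexes are known to gather in mammals. The windows are chr16:20732877-20733176 on the plus strand for Chrd, chr9:63757945-63758244 on the minus strand for Smad3, chr4:47352972-47353271 on the plus strand for Tgfbr1 and chr14:46390620-46390919 on the minus strand for Bmp4.
Chrd: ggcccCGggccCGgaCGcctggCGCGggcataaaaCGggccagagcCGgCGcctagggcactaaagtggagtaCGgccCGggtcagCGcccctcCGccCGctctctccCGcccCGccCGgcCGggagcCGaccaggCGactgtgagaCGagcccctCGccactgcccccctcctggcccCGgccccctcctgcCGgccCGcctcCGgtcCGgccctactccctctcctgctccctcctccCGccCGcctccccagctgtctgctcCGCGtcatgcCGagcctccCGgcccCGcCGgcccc
Smad3: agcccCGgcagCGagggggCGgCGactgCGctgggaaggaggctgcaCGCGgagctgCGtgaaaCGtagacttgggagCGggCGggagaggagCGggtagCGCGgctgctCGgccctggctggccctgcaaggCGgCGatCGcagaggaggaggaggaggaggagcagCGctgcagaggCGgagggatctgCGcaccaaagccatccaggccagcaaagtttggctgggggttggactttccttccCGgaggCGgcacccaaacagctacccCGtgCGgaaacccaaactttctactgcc
Tgfbr1: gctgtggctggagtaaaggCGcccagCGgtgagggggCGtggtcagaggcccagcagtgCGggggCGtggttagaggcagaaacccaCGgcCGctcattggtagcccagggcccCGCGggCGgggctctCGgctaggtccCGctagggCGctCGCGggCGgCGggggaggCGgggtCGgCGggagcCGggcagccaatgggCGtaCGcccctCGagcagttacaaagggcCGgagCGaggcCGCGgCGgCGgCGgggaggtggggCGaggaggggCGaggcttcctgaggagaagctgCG
Bmp4: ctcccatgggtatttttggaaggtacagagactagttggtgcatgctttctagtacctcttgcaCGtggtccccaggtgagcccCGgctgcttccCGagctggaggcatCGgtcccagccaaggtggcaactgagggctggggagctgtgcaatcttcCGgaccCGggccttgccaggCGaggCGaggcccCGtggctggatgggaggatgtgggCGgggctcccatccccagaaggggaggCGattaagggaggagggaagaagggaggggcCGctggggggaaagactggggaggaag
Chrd, which fell, and Tgfbr1, which rose, each hold 34 CpG in this window, more than 92.5% of the 27025 genes in the table. A second RefSeq start of Tgfbr1 has a window with 3 CpG, not shown. Smad3 holds 25 and Bmp4 12, and the median over all genes was 7. Over the 9 called members with an entry the number ran from 10 to 51. The palindrome GGCGCC, a GC-rich element bound by SMAD1 and SMAD5, was found in Chrd and Tgfbr1 but in none of the other 7 called members with an entry. Of all 39 members with an entry, called or not, 13 held it (33.3%), and 12% of all genes of the table did. These shares are not compared, because fewer than 80% of members have an entry. The element contains CpG and so overlaps the capitals. A match is only a match of letters.

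The rest of the pathway was read from a written list of 84 further genes, of which 75 were tested: 16 rose and 14 fell, with a median log2 fold change of 0.04. Among all tested genes 11.7% were called higher and 14.1% lower. Extracellular regulators made up most of the rises, with 10 of 30 higher and 5 lower. Bgn (biglycan, a TGF-beta-binding proteoglycan) went from 21.5 ± 2.23 to 50.01 ± 5.19 CPM, Bmper (a BMP-binding regulator) from 5.64 ± 0.31 to 12.5 ± 0.589 CPM and Ltbp1 (a latent TGF-beta binding protein) from 5.95 ± 0.318 to 12.3 ± 0.888 CPM. Ltbp2, another gene of that family, fell 10.6-fold from 56.4 ± 4.7 to 5.31 ± 0.972 CPM, and Fstl4 and Nrros fell 2.02-fold and 1.93-fold. Bgn is also a gene of meningeal fibroblasts, whose marker list rose 2.38-fold in summed level, and the part of that list in these rises was not tested.

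Among 7 co-receptor genes 2 rose and none fell. Beside this count and the later ones stand 11.7% called higher and 14.1% called lower over all tested genes. Rgmb rose 1.3-fold, and Hjv, which encodes the BMP co-receptor hemojuvelin of liver and skeletal muscle, rose from 0.278 ± 0.0262 to 1.98 ± 0.417 CPM. The skeletal muscle markers rose as well, and their part in the rise of Hjv was not tested. Hjv also passed the filter on low counts through its EED-/- libraries alone. Intracellular regulators fell in 5 of 21 cases and rose in none. Ski, a co-repressor of SMAD complexes, fell 2.62-fold from 292 ± 73.5 to 111 ± 3.04 CPM, Nedd4l, a ubiquitin ligase of SMADs, 1.90-fold, and Smurf2, another such ligase, 1.3-fold. Of 15 target genes of the pathway 4 rose and 4 fell. The BMP-induced genes Msx2 and Atoh8 fell 4.72-fold and 3.85-fold and the TGF-beta-induced Klf10 2.48-fold, while Runx3, Tgfbi and Runx2 rose 6.90-fold, 1.92-fold and 2.6-fold. In WT Runx3 was at only 0.0865 ± 0.0285 CPM, against 0.637 ± 0.0215 CPM in EED-/-, so that it passed the filter on low counts through its EED-/- libraries alone and its fold rests on very few WT reads. Of the 2 further ligands tested edgeR and DESeq2 called 0 and limma-voom 1, with 1 at an unadjusted p under 0.05.

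The authors' deposited table called, at its adjusted p under 0.05, 11 members higher and 8 lower. Of the 20 calls made here 18 were called there in the same direction. Bmp2 and Gdf3 were called only here and Gdf11 only there.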

How the data were processed

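Polyadenylated RNA of whole cerebellum was extracted with Trizol and sequenced after an Illumina library preparation, per the labels' protocols. The authors deposited estimated counts per gene, not scaled between libraries: 22.5% to 23.6% of values were not whole within 1e-06. The submitters' processing notes name Salmon 1.1.0, DESeq2 1.26.0, Trimmomatic 0.36 and the builds GRCm38 and mm10, with no role stated. The authors' deposited second table holds, per the file headers, log2 fold changes with p-values before and after adjustment, and also a mean normalised signal and a test score that were not used. Its adjusted p-value was 1 for all 20212 genes without a p-value, which were not read as tested.

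Counts were rounded, filtered with edgeR's filterByExpr (10 counts in 3 libraries at the median depth), scaled by TMM and tested with edgeR 4.0.16 (glmQLFit, glmQLFTest, robust, genotype as the only term, two-sided) in R 4.3.3. SEs are the size of the log2 change over the root of its F value, and 95% intervals use the fit's degrees of freedom. Alternatives used limma 3.58.1 and DESeq2 1.42.0. Lengths and positions came from GENCODE M21 (GRCm38), which matched all 59 members by versioned identifier. Tested on simulated counts for EED-/- against WT (18050 genes), the procedure found 88% of 2-fold and 100% of 4-fold changes, and 12 of 200 calls were false. The changed genes were drawn from those above a minimum mean count, with a single dispersion for all genes and as many rises as falls. These rates may therefore not hold for members with few counts, or for the wider shifts of these libraries. Library values were given for the called members, of which 1 is not reported here, and at most 3 called genes per direction were named from each further list. The members and lists were chosen with earlier results of these data known.

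No pair of replicates matched within sampling noise (chi-square of 9.11 to 61.4 per degree of freedom), and all 6 libraries were kept as separate replicates of 19621814 to 20366173 estimated counts.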

Additional observations from a re-analysis of the deposited data

How the results depend on the processing

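Alternatives were RLE, upper-quartile and library-size scaling, DESeq2, limma-voom, 2 other filters, the replicate block and each library left out. The median over all genes shifted by 0.12 (log2) under upper-quartile scaling and by 0.10 under library-size scaling, and higher genes then made up 61.3% and 58.6% of calls, against 45.5%. No pairing by replicate number was seen: deviations of same-numbered libraries correlated at -0.23 to 0.03 and those of other pairs at -0.19 to 0.20. With 3 libraries per genotype this check cannot exclude a pairing. With the replicate block 8 members were higher and 6 lower, and 1505 of all genes were higher and 1706 lower. Leaving out single libraries gave 7 to 11 members higher and 5 to 9 lower, 1205 to 2176 of all genes higher and 1335 to 2476 lower, and 13 to 19 further pathway genes higher and 8 to 15 lower. Members called higher numbered 7 without WT replicate 3, and members called lower 5 without EED-/- replicate 1; fewer samples enter those fits. Further pathway genes called lower numbered 9 under the replicate block and also under upper-quartile or library-size scaling, and the cause was not tested. With the longest transcript as length 40 members reached 1 CPM per kb in WT.

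Of the 30 members not called, 11 changed sign in some setting. Acvr2b was 0.0621 under upper-quartile and 0.0464 under library-size scaling. Without single libraries the log2 change ranged from -0.0553 to 0.49 for Acvr2a, -0.16 to 0.0278 for Acvr2b, -0.0212 to 0.28 for Acvrl1, -0.0747 to 0.19 for Bmp5, -0.0612 to 0.40 for Bmp6, -0.0519 to 1.25 for Gdf5, -0.16 to 0.45 for Grem1, -0.10 to 0.30 for Id1, -0.0505 to 0.12 for Id4, -0.0295 to 0.33 for Nbl1 and -0.0194 to 0.41 for Nog. The planned comparison of promoter CpG content by calls was not run, because too few members have an entry. At 20 counts per CPM, values under 1 CPM rest on few counts.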
